A study of Mus musculus with 16 samples.

Results

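Expression of 10 growth hormone and STAT5 genes was described in mouse liver after a single meal, with and without antibiotic drinking water. The genes are Ghr, Stat5b, Socs2, Cish, Igf1, Igfals, Bcl6, Cux2, Cyp2d9 and Serpina12. They were taken by symbol from a list of pathway components and targets, so they are 10 of the 25006 genes in the count table, and all 10 were among the 13180 genes with enough reads to be tested. They were chosen by a list of growth hormone pathway genes and pulse-sensitive targets that was drawn up with their counts in the same 16 libraries already known, so their values, fold changes and calls in the fit across all genes are given as a description and support no conclusion. Tests are given for 110 other genes of the same pathway, of which 92 had enough reads.

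All mice were of the inbred strain C57BL/6. They had been assigned at random to control or antibiotic drinking water and received by gavage a slurry of chow or of fast food, and the liver was taken 4 h later. This gave 4 groups of 4 libraries: chow with control water, fast food with control water, chow with antibiotic water and fast food with antibiotic water. The sources used here do not name the antibiotics or the length of their use, nor the age and sex of the mice. Nothing in the labels says that each library came from a separate animal, so p-values measure the spread between these libraries, which may in part be technical.

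Growth hormone is released by the pituitary and binds its receptor on hepatocytes, where the kinase JAK2 phosphorylates the transcription factor STAT5B. STAT5B then enters the nucleus and switches on Igf1, Igfals and the feedback inhibitors Socs2 and Cish. In male rodents the hormone arrives in pulses and in females more evenly, and this difference sets the sex bias of many liver genes through STAT5B, BCL6 and CUX2. Liver RNA taken at a single time therefore samples a pathway whose input changes over hours.

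Library totals ran from 8954378 to 18954655 counts. Features that take ribosomal RNA-like reads held above 1% of the counts in 7 libraries and below 1% in the other 9, which included all 4 of the fast food and control water group. All 16 libraries had transcripts of the Y-linked genes Ddx3y (128 to 230 CPM, counts scaled to a common library size), Eif2s3y, Kdm5d and Uty, and Xist was at most 1.42 CPM. Hepatocyte markers (8 genes, among them Alb) were present in every library, at a summed level of 95010 to 128500 CPM after chow with control water and 162900 to 223400 CPM after chow with antibiotic water. Acute phase genes, which hepatocytes switch on in response to inflammatory cytokines, were highest in 3 libraries: replicate 2 of chow with control water (a score of 0.985, the mean log2 deviation of 19 such genes), replicate 4 of chow with antibiotic water (1.95) and replicate 2 of fast food with antibiotic water (1.95).

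Per kilobase of exon and averaged over all libraries, the levels ran from Cyp2d9 (370 CPM per kb), Igf1 (74.4) and Ghr (35.3) through Igfals (20.6), Stat5b (9.96), Socs2 (7.63), Serpina12 (4.37) and Cish (4.19) to Cux2 (1.69) and Bcl6 (1.52). The order was not the same in every group: after chow with antibiotic water Socs2 was at 23.0 and Igfals at 16.3 CPM per kb, against 1.19 and 21.04 CPM per kb after chow with control water.

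**Figure D1:**
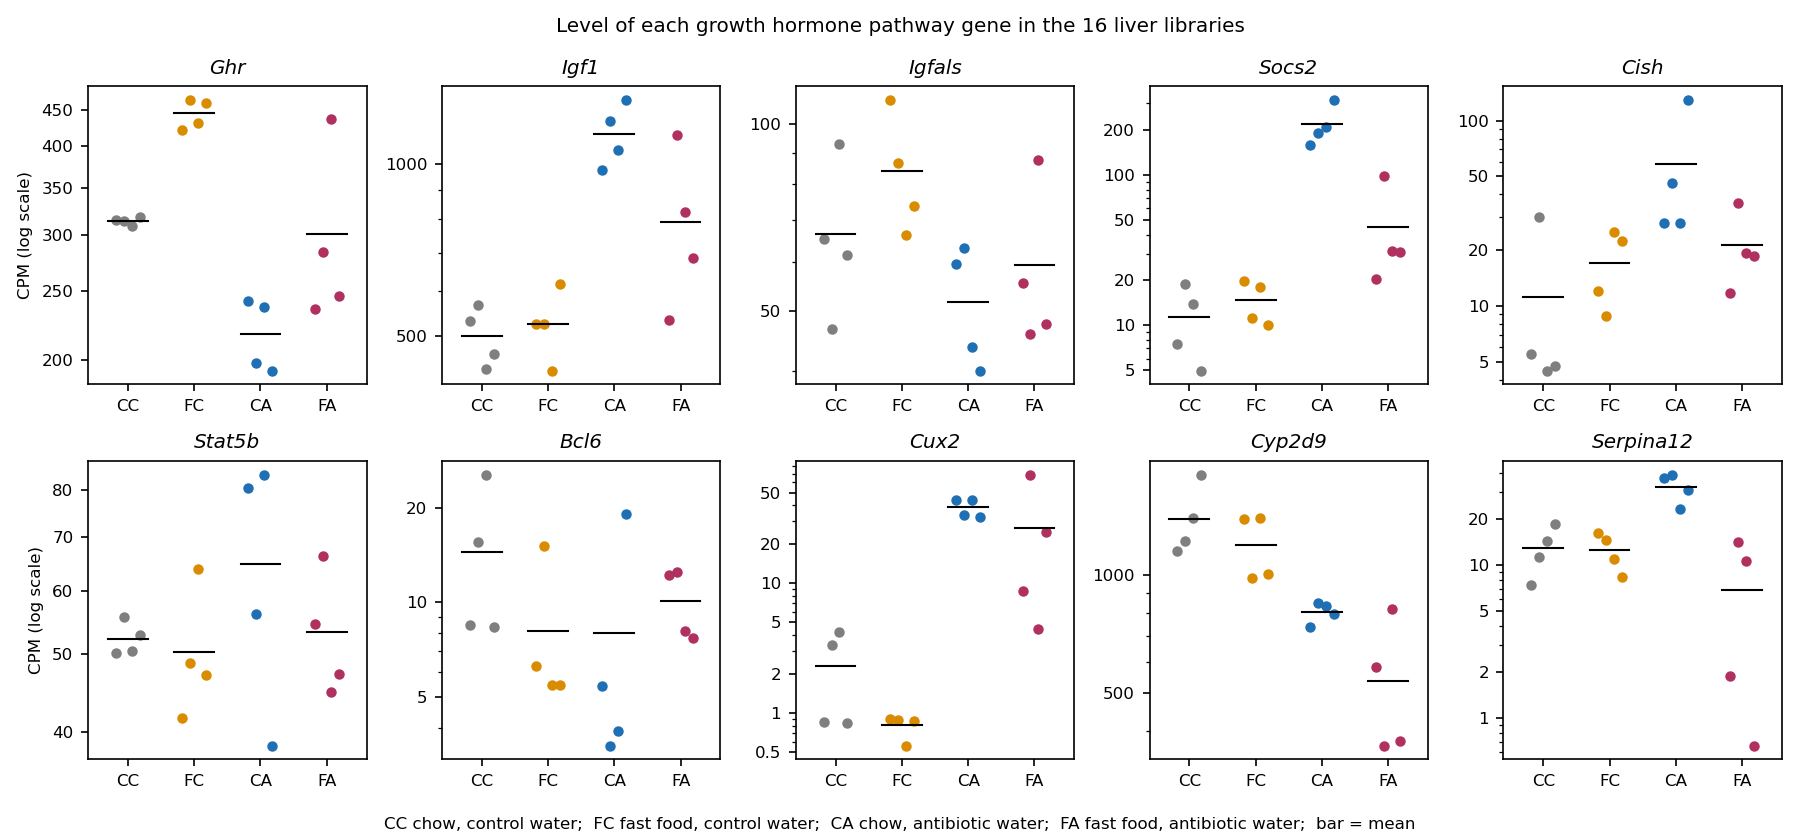
CPM of each of the 10 genes (log axis) in the 16 libraries, by group; each point is a library and each bar a group mean. Socs2 stands at 159.6 to 318 CPM after chow with antibiotic water and at most 19.7 CPM in all 8 libraries with control water.

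Ghr encodes the growth hormone receptor (ENSMUSG00000055737, gene on chromosome 15, 3317760 to 3583492, minus strand, GRCm38). Its level was 315, 314, 309 and 318 CPM after chow with control water (mean 314 ± 3.83, SD, n = 4) and 422, 466, 432 and 461 CPM after fast food with control water (445 ± 21.2). It was 243, 198, 237 and 193 CPM after chow with antibiotic water (218 ± 25.8), and 236, 284, 437 and 246 CPM after fast food with antibiotic water (301 ± 92.9). The libraries of the first 3 groups lay close together, whereas in the last group replicate 3 lay within the range of fast food with control water and the other 3 replicates lay below all control water libraries. The order of the group means was chow with antibiotic water, fast food with antibiotic water, chow with control water, fast food with control water; only the last pair of neighbours did not overlap.

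Stat5b, which encodes the STAT protein that carries the hormone's signal (ENSMUSG00000020919, chromosome 11, 100780731 to 100850724, minus strand), did not separate the groups. Its level was 50.2, 55.6, 50.5 and 52.9 CPM after chow with control water and 41.6, 48.8, 63.9 and 47.1 CPM after fast food with control water. With antibiotic water it was 80.5, 56.1, 83.6 and 38.5 CPM after chow and 54.5, 66.3, 44.9 and 47.2 CPM after fast food. All 4 groups overlapped, and the widest spread was after chow with antibiotic water, where replicate 4 was the lowest of all libraries and replicate 3 the highest.

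Socs2 encodes a feedback inhibitor that is induced by STAT5 and damps signalling from the receptor (ENSMUSG00000020027, chromosome 10, 95385362 to 95417180, minus strand). With control water it was low after either meal: 7.51, 18.9, 13.8 and 4.97 CPM after chow (11.3 ± 6.28) and 19.7, 11.2, 17.9 and 10.1 CPM after fast food (14.7 ± 4.80). After chow with antibiotic water it was 159.6, 190.4, 209.7 and 318 CPM (219.5 ± 69.0), with no library near the other groups. After fast food with antibiotic water it was 20.3, 99.2, 31.1 and 30.9 CPM (45.4 ± 36.2), so that 3 libraries lay just above the control water range and replicate 2 lay between them and the chow libraries. Of neighbouring group means, only the 2 control water groups overlapped.

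Cish, which encodes the related STAT5-induced inhibitor CIS (ENSMUSG00000032578, chromosome 9, 107296026 to 107302784, plus strand), followed the same order of group means with more overlap. It was 5.47, 30.0, 4.46 and 4.76 CPM after chow with control water (11.2 ± 12.6) and 12.04, 8.86, 25.0 and 22.5 CPM after fast food with control water (17.1 ± 7.85). It was 27.9, 46.1, 28.1 and 129.8 CPM after chow with antibiotic water (58.0 ± 48.6) and 11.7, 36.0, 19.2 and 18.7 CPM after fast food with antibiotic water (21.4 ± 10.3). In 3 groups the highest library was the one with high acute phase genes: replicate 2 of chow with control water, replicate 4 of chow with antibiotic water and replicate 2 of fast food with antibiotic water. The part of the acute phase response in these values was not tested; the values without the 3 libraries are given with the fold changes.

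Igf1 encodes insulin-like growth factor 1, the liver hormone that carries much of growth hormone's effect (ENSMUSG00000020053, chromosome 10, 87858265 to 87937042, plus strand). It was 532, 567, 438 and 465 CPM after chow with control water (500.6 ± 59.5) and 525, 525, 435 and 616 CPM after fast food with control water (525 ± 73.9). It was 976, 1189.9, 1057 and 1295 CPM after chow with antibiotic water (1129 ± 141) and 533, 1125, 824 and 685 CPM after fast food with antibiotic water (792 ± 252). Every chow library with antibiotic water was above every library with control water, and the fast food libraries with antibiotic water spanned the range from one to the other.

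Igfals, which encodes the acid-labile subunit that holds IGF1 in a circulating complex (ENSMUSG00000046070, chromosome 17, 24865997 to 24882010, plus strand), did not follow the order of Igf1. It was 65.4, 46.8, 92.9 and 61.5 CPM after chow with control water and 109.6, 86.5, 66.3 and 73.7 CPM after fast food with control water. With antibiotic water it was 59.5, 63.2, 43.7 and 40.0 CPM after chow and 55.5, 45.9, 87.7 and 47.7 CPM after fast food. All neighbouring groups overlapped, and its lowest mean was in the group in which Igf1 was highest.

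Cux2 encodes a homeobox factor that is female-biased in mouse liver and activates female-biased genes (ENSMUSG00000042589, chromosome 5, 121856366 to 122050102, minus strand). With control water it was near the limit of counting: 0.859, 3.37, 4.21 and 0.837 CPM after chow (2.32 ± 1.73) and 0.910, 0.886, 0.561 and 0.863 CPM after fast food (0.805 ± 0.164). With antibiotic water it was 43.6, 33.5, 43.9 and 32.5 CPM after chow (38.4 ± 6.21) and 8.66, 68.8, 4.49 and 25.0 CPM after fast food (26.7 ± 29.4). The 8 libraries with antibiotic water were all above the 8 with control water, evenly so after chow and over a wide range after fast food.

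Bcl6 encodes a repressor that is male-biased in mouse liver and is itself held down by growth hormone (ENSMUSG00000022508, chromosome 16, 23965052 to 23988852, minus strand). It was 8.48, 15.6, 25.5 and 8.37 CPM after chow with control water and 6.26, 15.2, 5.45 and 5.49 CPM after fast food with control water. With antibiotic water it was 5.44, 3.50, 3.90 and 19.0 CPM after chow and 12.2, 12.5, 8.10 and 7.73 CPM after fast food. All groups overlapped, and 3 of the 4 chow libraries with antibiotic water were below all 4 chow libraries with control water while replicate 4 was not.

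Cyp2d9, a male-biased cytochrome P450 that hydroxylates steroids (ENSMUSG00000068086, chromosome 15, 82433437 to 82456845, plus strand), was lower with antibiotic water. It was 1149.5, 1226, 1400.2 and 1808 CPM after chow with control water (1396 ± 294) and 1395, 985, 1396 and 1008 CPM after fast food with control water (1196 ± 231). It was 739, 849, 835 and 794 CPM after chow with antibiotic water (804 ± 49.5) and 582, 366, 818 and 377 CPM after fast food with antibiotic water (536 ± 213). No library with antibiotic water reached the lowest one with control water. The gene has near-identical relatives in the Cyp2d cluster, and how reads with several matches were counted is not given in the sources used here, so its counts are uncertain.

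Serpina12 encodes the serine protease inhibitor vaspin (ENSMUSG00000041567, chromosome 12, 104028769 to 104044443, minus strand). It was 7.41, 11.3, 14.3 and 18.4 CPM after chow with control water (12.8 ± 4.63) and 16.2, 14.6, 10.96 and 8.28 CPM after fast food with control water (12.5 ± 3.56). It was 36.7, 38.8, 23.2 and 30.7 CPM after chow with antibiotic water (32.3 ± 7.02) and 1.89, 14.0, 10.7 and 0.660 CPM after fast food with antibiotic water (6.81 ± 6.55). The chow libraries with antibiotic water stood above the other 12 libraries, and the 2 lowest libraries of all were from the fast food group with antibiotic water.

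The sequences before the transcript starts were read for the site that STAT5 binds, which bears on how many of these genes carry it close to the start. RefSeq (GRCm38.p6) gave 15 windows of 250 bases for 9 of the 10 genes, all but Socs2. The interferon-gamma-activated sequence TTCNNNGAA, which reads the same on both strands, was in 4 of the 15 windows (26.7%), against 7.02% of all 32851 windows of that length. Those windows belonged to Bcl6 and Igfals. The wider form, with 4 free bases between TTC and GAA, was in 0 of the 15, against 5.85% of all windows. A match is only a description of letters, and a window without a match says nothing of sites elsewhere. The windows shown are those of Bcl6, from chr16:23988853-23989102 upstream of the gene and from chr16:23981284-23981533 within an intron by GENCODE M21 (both minus strand), and one of Igfals, from chr17:24877981-24878230 (plus strand), which overlaps an annotated exon. The window of Serpina12, from chr12:104044444-104044693 (minus strand), is shown beside them as a gene whose level differed between groups and whose window held no match. They are written 5′ to 3′ with matches in capitals.
Bcl6 upstream: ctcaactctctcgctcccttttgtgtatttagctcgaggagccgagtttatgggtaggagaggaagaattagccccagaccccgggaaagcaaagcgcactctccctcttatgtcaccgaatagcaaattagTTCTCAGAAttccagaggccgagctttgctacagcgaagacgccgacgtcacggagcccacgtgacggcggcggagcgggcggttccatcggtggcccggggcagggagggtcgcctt
Bcl6 intronic: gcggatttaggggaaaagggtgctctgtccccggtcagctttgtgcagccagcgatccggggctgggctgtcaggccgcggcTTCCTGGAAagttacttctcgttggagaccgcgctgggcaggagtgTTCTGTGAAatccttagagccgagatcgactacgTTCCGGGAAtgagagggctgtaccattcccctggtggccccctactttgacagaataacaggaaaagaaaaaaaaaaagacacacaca
Igfals: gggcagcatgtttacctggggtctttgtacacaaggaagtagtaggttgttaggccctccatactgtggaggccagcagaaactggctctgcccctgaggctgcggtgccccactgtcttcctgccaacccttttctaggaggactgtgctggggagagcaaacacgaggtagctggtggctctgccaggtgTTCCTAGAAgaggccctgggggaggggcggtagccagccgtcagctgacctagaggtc
Serpina12: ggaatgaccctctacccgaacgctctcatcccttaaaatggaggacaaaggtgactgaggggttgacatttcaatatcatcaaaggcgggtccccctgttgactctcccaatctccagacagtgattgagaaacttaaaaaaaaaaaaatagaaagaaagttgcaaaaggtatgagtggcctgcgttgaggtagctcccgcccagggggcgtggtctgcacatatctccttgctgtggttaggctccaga
Each window lies before its own transcript start. The match in the Bcl6 upstream window began 118 bases before the start of that window's transcript. The 3 in the intronic window began 168, 122 and 88 bases before a different Bcl6 start, inside the gene. The match in the Igfals window began 58 bases before the start that belongs to it. In the edgeR fit of all 16 libraries, neither Bcl6 nor Igfals was called in any of the 5 comparisons described next. For water after chow, Bcl6 was called lower in 2 of 27 alternative fits. These were the fit without replicate 4 of chow with antibiotic water and that without the 3 acute phase libraries (log2 -1.70 in place of -0.95).

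The fit across all genes put these levels on one scale, as the log2 fold change with its standard error and a call at an adjusted p under 0.05. Between fast food and chow with control water, 0 of the 10 genes were called by edgeR, 1 had an unadjusted p under 0.05, and 0 were called by DESeq2; 0.577% of all genes tested were called (0.243% higher, 0.334% lower). Ghr had the only groups that did not overlap (log2 fold change 0.50 ± 0.16), against 10.3% of all genes (5.17% higher, 5.15% lower). Cux2 had the largest estimate (-1.57 ± 0.90), at a level of about 1 CPM.

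Between antibiotic and control water after chow, 6 of the 10 genes were called, 4 higher and 2 lower, beside 23.8% of all genes tested (10.6% higher, 13.2% lower). Socs2 was 19.3-fold higher (log2 4.27 ± 0.56), Cux2 15.9-fold higher (3.99 ± 0.76), Cish 5.14-fold higher (2.36 ± 0.73) and Igf1 2.26-fold higher (1.17 ± 0.19). Ghr was 1.44-fold lower (-0.53 ± 0.16) and Cyp2d9 1.74-fold lower (-0.80 ± 0.22). Serpina12 was not called (1.32 ± 0.57). The libraries of the 2 waters did not overlap for 6 genes, namely Serpina12 and the called genes except Cish, beside 24.8% of all genes (11.2% higher, 13.6% lower). Since the genes were picked with this comparison in view, nothing is read from these shares.

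The estimates for Socs2, Igf1 and Cux2 after chow were as large within each class of library: 4.28, 1.16 and 4.09 among libraries with a ribosomal RNA-like share below 1%, and 4.27, 1.20 and 3.90 among those above. Leaving out the 3 libraries in which acute phase genes were highest gave 4.42, 1.19 and 4.26, and each of these 3 genes kept its call whichever of the 16 libraries was left out. Among the libraries above 1% alone, 2 against 2, all 6 calls were lost. Stat5b was not called in the fit of all libraries (0.31) but was called higher in 3 of 27 alternatives. These were libraries below 1% (0.66), the fit without the 3 acute phase libraries (0.55) and the fit without replicate 4 of chow with antibiotic water. Among libraries above 1% its estimate was -0.14. For Cish, leaving out replicate 2 of chow with control water gave 3.56, leaving out replicate 4 of chow with antibiotic water gave 1.64, leaving out the 3 acute phase libraries gave 2.83, and the call was lost in 4 of the 16 fits, those without replicate 4 of chow with antibiotic water or without replicate 1, 3 or 4 of chow with control water. The Ghr call was lost without replicate 4 of chow with control water or replicate 2 or 4 of chow with antibiotic water (-0.57 to -0.45 over the 16 fits) and without the 3 acute phase libraries, and the Cyp2d9 call without replicate 4 of chow with control water (-0.62). Of the 19 acute phase genes, 3 were higher and 1 lower by the same test (median log2 fold change 0.85). This is 21.1% called, near the 23.8% of all genes, so nothing is read from the count. The summed hepatocyte markers were higher and the summed Kupffer cell markers (6 genes) lower after chow with antibiotic water, 139 to 183 against 218 to 640 CPM. In bulk liver, fewer cells of a type and less RNA per cell cannot be told apart, and the part of cell makeup in these results was not tested.

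**Figure D2:**
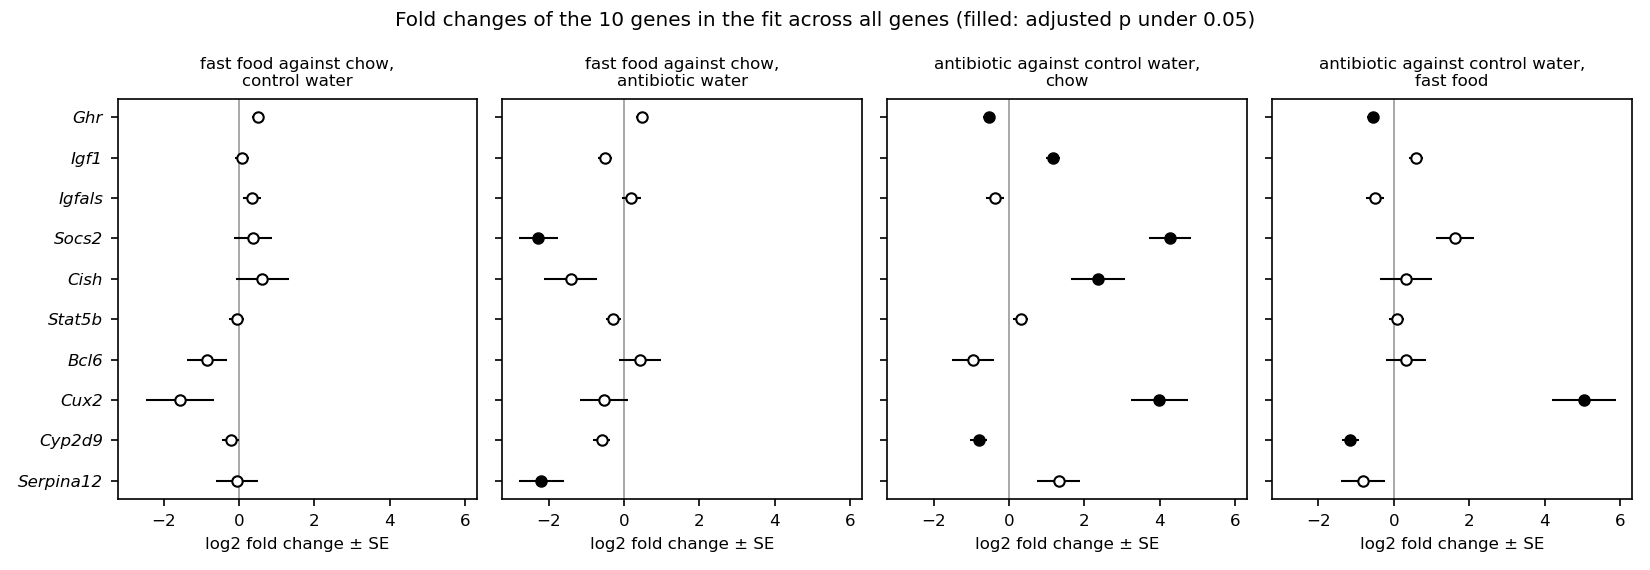
Log2 fold change of each of the 10 genes in the 4 comparisons, with bars of 1 standard error; filled points had an adjusted p under 0.05. The largest values, for Socs2 and Cux2, are in the comparisons of drinking water.

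Between fast food and chow with antibiotic water, 2 of the 10 genes were called, both lower after fast food, beside 13.7% of all genes (7.78% higher, 5.87% lower). These were Socs2 (4.82-fold lower, log2 -2.27 ± 0.51) and Serpina12 (4.58-fold lower, -2.19 ± 0.59), and these 2 were also the genes whose groups did not overlap, beside 14.5% of all genes (7.78% higher, 6.71% lower). Igf1 (-0.51 ± 0.18), Cish (-1.42 ± 0.70) and Cyp2d9 (-0.59 ± 0.22) had lower estimates and Ghr a higher one (0.47 ± 0.16), none called; DESeq2 called Igf1, Cyp2d9 and Ghr as well. Replicate 2 of fast food with antibiotic water was the library nearest to chow for Socs2: without it the Socs2 estimate was -3.00 and that of Cux2 -1.63 in place of -0.53. The Socs2 call was kept in all 16 fits that left out a library. It was lost in a fit to these 2 groups alone and among libraries with a ribosomal RNA-like share above 1% alone. The Serpina12 call was lost without replicate 1 or 2 of chow with antibiotic water or without replicate 1 or 3 of fast food with antibiotic water, with estimates from -2.75 to -1.84 over the 16 fits. The Serpina12 call was also lost with no filter on low counts, in the fit to the 2 groups and among libraries above 1% alone.

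Between antibiotic and control water after fast food, 3 of the 10 genes were called, beside 5.99% of all genes (3.77% higher, 2.22% lower): Cux2 higher (log2 5.04 ± 0.84), Cyp2d9 lower (-1.16 ± 0.23) and Ghr lower (-0.57 ± 0.16). Socs2 was not called (1.63 ± 0.51), although its groups did not overlap; Cux2 and Cyp2d9 also had groups that did not overlap, beside 18.4% of all genes (9.98% higher, 8.38% lower). DESeq2 called Socs2 and Igf1 as well. Without replicate 2 of fast food with antibiotic water the estimates were 0.89 for Socs2 and 3.93 for Cux2. The Ghr call was kept in 8 of 16 fits that left out a library, and was lost without any 1 of the 4 fast food libraries with control water, without replicate 1, 2 or 4 of fast food with antibiotic water, and without replicate 1 of chow with control water; the Cyp2d9 call was lost without replicate 3 of fast food with control water. All libraries of the control water group and 1 of the antibiotic water group had a ribosomal RNA-like share below 1%, so that water and this share cannot be told apart here; with the share split as a model term, all 3 calls were lost, and the estimates were 4.67 for Cux2, -0.90 for Cyp2d9 and -0.35 for Ghr.

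The meal by water interaction, which asks whether the meal's effect differed between the waters, was called for 0 of the 10 genes by edgeR, with 3 at an unadjusted p under 0.05, beside 3.94% of all genes (2.36% positive, 1.58% negative). Its largest negative estimates were for Socs2 (-2.65 ± 0.71), Serpina12 (-2.14 ± 0.82) and Cish (-2.03 ± 0.99). DESeq2 called Socs2.

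Across the 16 libraries, Socs2 went with Igf1 (Pearson r of log2 CPM 0.919), with Cux2 (0.875) and with Cish (0.815), as a description of points that share groups and library depth. Once each library's group mean was removed, the highest of the 45 pairs were Socs2 with Cux2 (0.697) and Socs2 with Cish (0.647), and the lowest was Cux2 with Cyp2d9 (-0.706). Replicate 2 of fast food with antibiotic water had the highest Socs2, Cish and Cux2 and the lowest Cyp2d9 of its group. The genes most like Socs2 over all 16 libraries were Eprs, a tRNA synthetase (r = 0.958), Cyp39a1 (0.953), Eps15 (0.949), Tes (0.949) and Emd (0.945). Those most like Igf1 were Zfp292 (0.968), Zfp644 (0.954), Hipk3 (0.953), Chd2 (0.952) and Egfr, the epidermal growth factor receptor (0.945). Those most like Cish were Arid5b (0.932), Mms19 (0.919), Acvr1 (0.915), Pip5k1a (0.900) and Man2a1 (0.891). None of these 15 was among the 5 most like the same gene after group means were removed. Their r was then 0.540 to 0.733 for Socs2, 0.745 to 0.864 for Igf1 and 0.818 to 0.873 for Cish. With group means removed, Cish went most with Mx2 (0.941) and with Socs3 (0.923), a cytokine-induced inhibitor of the same family.

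**Figure D3:**
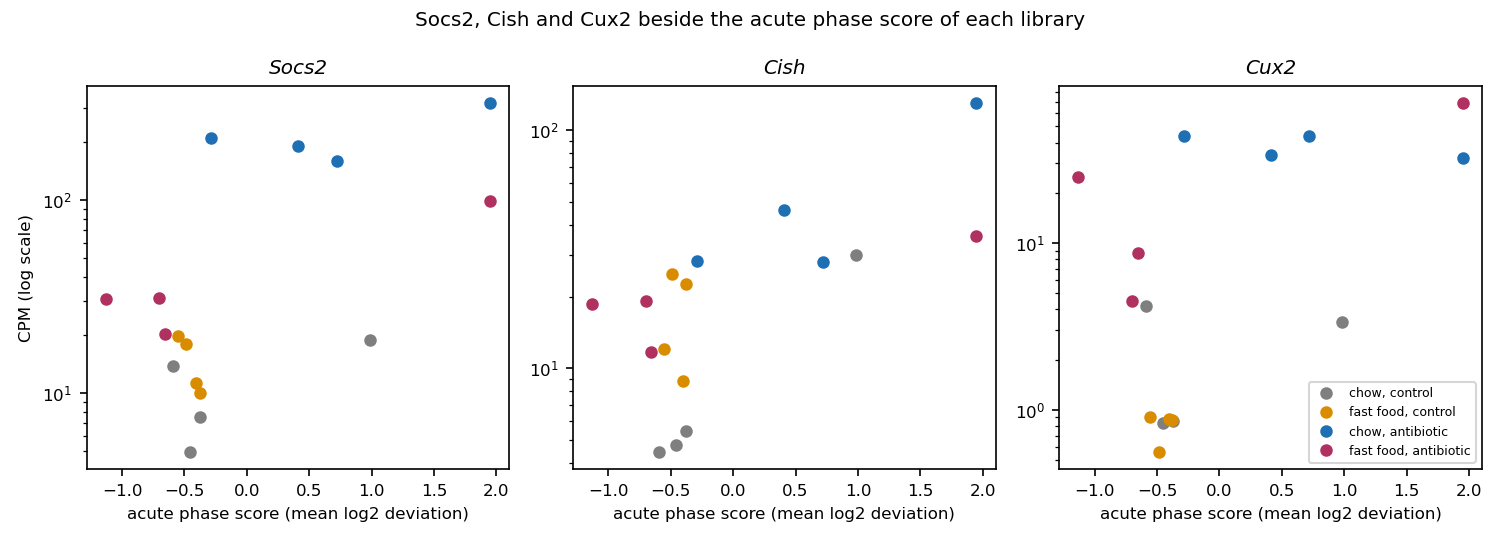
CPM (log axis) of Socs2, Cish and Cux2 against the acute phase score of each library, the mean log2 deviation of 19 acute phase genes; colours mark the 4 groups. The chow libraries with antibiotic water hold high Socs2 at scores from -0.287 to 1.95, and the highest Cish value, 129.8 CPM, is at a score of 1.95.

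The other pathway genes are set beside these 10. Between antibiotic and control water after chow, 43 of the 92 tested genes passed the test (25 higher, 18 lower), which is 46.7% beside 23.8% of all genes. The lists were drawn up with some of these results known, so the excess is a description and cannot show whether these 10 stood alone. Adjusted p-values are from edgeR's quasi-likelihood test over all genes.

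Among 24 genes of receptors, kinases, STATs, SOCS proteins, phosphatases and adaptors, 4 rose and 3 fell with antibiotic water after chow. This is 29.2% called, near the 23.8% of all genes (10.6% higher, 13.2% lower), so nothing is read from the count. Prlr, the prolactin receptor, which signals through the same JAK2 and STAT5, rose 2.88-fold (log2 1.53 ± 0.29, adjusted p = 0.00195), from 57.5 to 92.2 CPM in the chow libraries with control water to 187 to 245 CPM. Grb10, an adaptor that restrains insulin and IGF receptors, rose (0.80 ± 0.18, adjusted p = 0.00504). The phosphatase gene Ptpn6 fell (-0.77 ± 0.15, adjusted p = 0.00148). Jak2 (0.20 ± 0.27, adjusted p = 0.634) and Stat5a (-0.49 ± 0.21, adjusted p = 0.0944) did not pass. Socs1 did not pass either (adjusted p = 0.0526), and replicate 4 of chow with antibiotic water held 209 counts of it against 2 to 7 in its group. Socs3 did not pass (1.29 ± 1.32, adjusted p = 0.513) and had a high library on both sides: replicate 2 of chow with control water held 3621 counts against 92 to 270 in its group, and replicate 4 of chow with antibiotic water 3622 counts against 614 to 1313. The Socs1 and Socs3 counts are not scaled for depth. Replicate 2 of chow with control water held 14081870 counts in all, and replicate 4 of chow with antibiotic water 9022674. The Socs3 estimate was 2.53 without the 3 acute phase libraries, -0.25 without replicate 4 of chow with antibiotic water, and 4.08 (adjusted p = 0.0416) without replicate 2 of chow with control water. Replicate 4 of chow with antibiotic water also had the highest sum of neutrophil markers, 89.9 CPM against at most 11.1 CPM in every other library, and the part of this in the result was not tested. The median log2 fold change of the list was 0.24, against -0.01 over all genes.

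Of 11 tested genes of the IGF axis (ligands, receptors, binding proteins and proteases), 5 rose and 2 fell (63.6% called, beside 23.8% of all genes). The 5 that rose were Igfbp1, Igfbp3, Igfbp4, Igfbp5 and Igfbp6, which encode IGF binding proteins, as 7 of the 11 tested genes do. Igfbp6 was called at few counts, 1 to 10 in each chow library with control water and 7 to 25 with antibiotic water (1.58 ± 0.53, adjusted p = 0.0391). Igfbp1, which is induced in fasting and binds IGF1 in the blood, was 102.6, 471, 144 and 78.6 CPM after chow with control water and 1382, 1550.0, 3439.6 and 2969 CPM after chow with antibiotic water, an 11.7-fold rise (log2 3.55 ± 0.86, adjusted p = 0.0101). Igfbp5 rose 4.15-fold (2.05 ± 0.28, adjusted p = 0.000173) and Igfbp4 1.61-fold (0.69 ± 0.12, adjusted p = 0.000891). Igfbp3, which carries most IGF1 together with the product of Igfals, rose 1.89-fold (0.92 ± 0.29, adjusted p = 0.0292), a call that was lost in 4 of the 16 fits without a library (adjusted p up to 0.0786, without replicate 1 of chow with control water). Igfbp7 fell (-0.47 ± 0.13, adjusted p = 0.0126), as did Igf2r. Igfbp2 (-0.03 ± 0.24, adjusted p = 0.946) and the receptor gene Igf1r (0.28 ± 0.28, adjusted p = 0.487) did not pass. The list's median was 0.69.

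Of 14 transcription factors and chromatin enzymes that act with STAT5 or on sex-biased genes, 3 rose and 2 fell (35.7% called, beside 23.8% of all genes). Tox, a female-biased nuclear factor gene, rose 2.84-fold (1.505 ± 0.227, adjusted p = 0.000286), from 6.33 to 10.5 CPM to 19.4 to 25.1 CPM. Trim24 rose 2.18-fold (1.12 ± 0.18, adjusted p = 0.000528). Onecut1, which encodes HNF6, rose 2.72-fold (1.44 ± 0.49, adjusted p = 0.0454) but was called in 6 of the 16 fits without a library. Foxa1 fell 2.64-fold (-1.40 ± 0.30, adjusted p = 0.00335) and Cebpa fell 1.58-fold (-0.66 ± 0.18, adjusted p = 0.0122). Hnf4a, which is required for much of the liver's sex bias, did not pass (0.46 ± 0.18, adjusted p = 0.0700).

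Of 30 female-biased liver genes listed, 18 had enough reads to be tested. The others held few counts in every group, chow with antibiotic water included, so no rise is shown for them. Of the 18 tested, 9 rose and 1 fell with antibiotic water after chow (55.6% called, beside 23.8% of all genes), and their median log2 fold change was 0.84. Sult1e1, which sulfates and inactivates estrogens, was 0, 0.549, 0.0991 and 0.523 CPM after chow with control water and 105.8, 123.8, 61.9 and 26.0 CPM after chow with antibiotic water (log2 7.95 ± 1.02, adjusted p = 0.000238; the control water libraries held 0 to 10 counts each, so the size of the fold is imprecise). Fmo2, a flavin monooxygenase gene, rose 7.86-fold (2.97 ± 0.28, adjusted p = 1.5e-05). Cyp39a1, an oxysterol 7-alpha-hydroxylase, rose 4.27-fold (2.09 ± 0.26, adjusted p = 9.19e-05). These 3 calls were kept whichever library was left out, and the estimates were 7.84, 3.01 and 2.01 among libraries with a ribosomal RNA-like share above 1% and 8.06, 2.96 and 2.19 among those below. Abcd2 was the gene that fell. Cyp2b9, a strongly female-biased cytochrome P450, held 0 to 1 counts in each chow library with antibiotic water and did not pass.

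Of 19 tested male-biased liver genes, 7 fell and 4 rose (57.9% called, beside 23.8% of all genes), with a median of -1.24. Elovl3, a fatty acid elongase, was 148.8, 116.8, 87.0 and 140.8 CPM after chow with control water and 1.22, 2.36, 4.13 and 3.55 CPM after chow with antibiotic water, a 44.6-fold fall (log2 -5.48 ± 0.81, adjusted p = 0.000574). Gstp1, a glutathione transferase, fell 4.40-fold (-2.14 ± 0.29, adjusted p = 0.000198). Slco1a1, an organic anion transporter, fell 3.03-fold (-1.60 ± 0.49, adjusted p = 0.0297), a call kept in 11 of the 16 fits without a library. Cyp4a12a, an arachidonic acid hydroxylase gene, did not pass (-1.52 ± 0.54, adjusted p = 0.0562). Against this direction, Cyp7b1, an oxysterol hydroxylase on the bile acid pathway, rose 6.04-fold (2.59 ± 0.29, adjusted p = 4.22e-05), from 70.4 to 112.5 CPM to 355 to 806 CPM. Moxd1 also rose (adjusted p = 0.00181), from 1 count in all 4 chow libraries with control water to 4 to 163 counts in each with antibiotic water, and the other 2 that rose were Nox4 and Susd4. Cyp, Gstp, Sult and Ugt genes have close relatives whose reads may have been split between them.

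**Figure D4:**
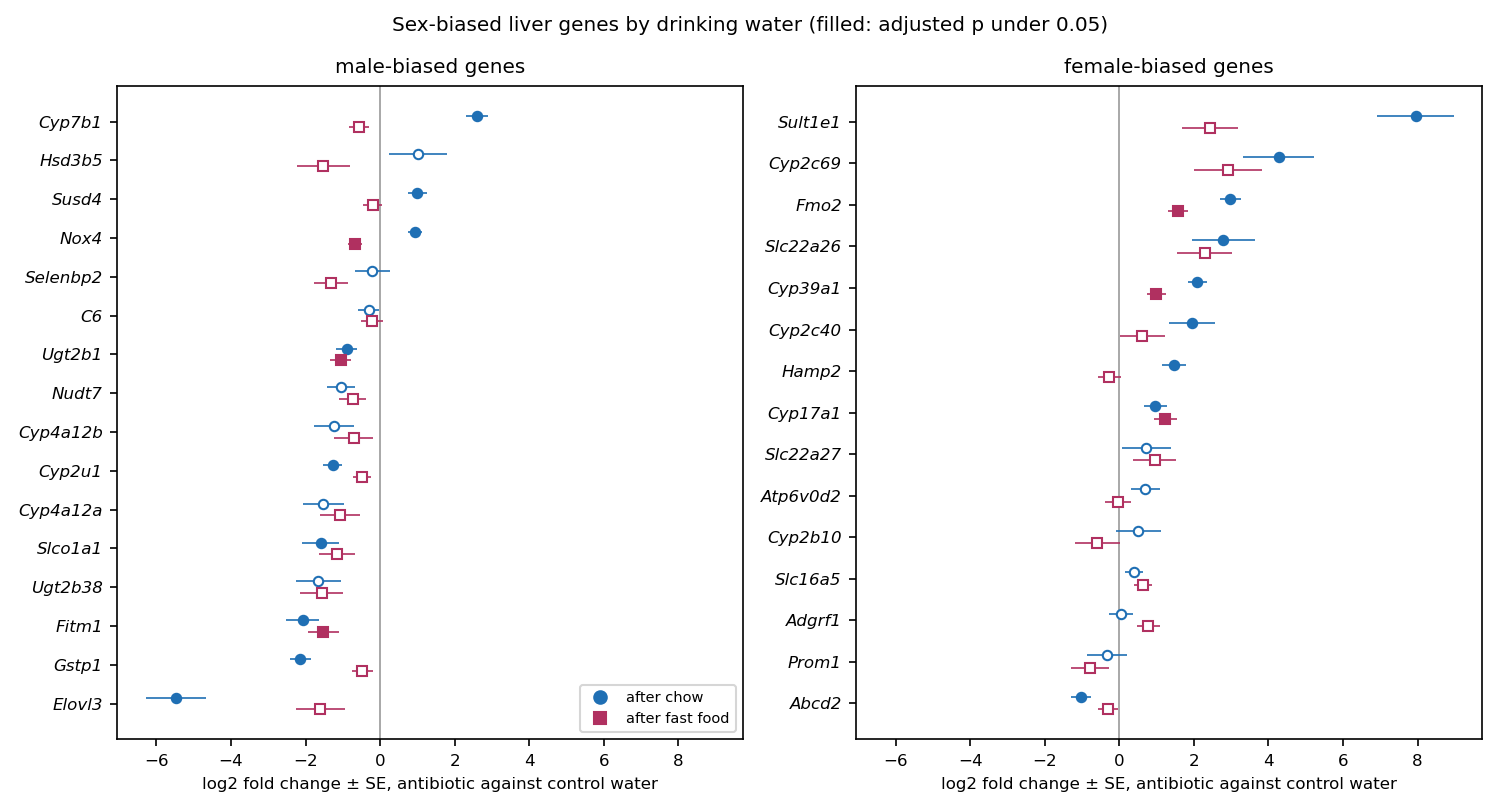
Log2 fold change (with bars of 1 standard error) of male-biased and female-biased liver genes between antibiotic and control water, after chow (circles) and after fast food (squares); filled symbols had an adjusted p under 0.05, and some genes are left out, among them 5 with at most 10 counts in a whole group. Sult1e1 (7.95) and Elovl3 (-5.48) after chow are the extremes.

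Of 6 tested genes for lipid uptake and storage that growth hormone signalling in liver is known to restrain, 3 fell with antibiotic water after chow and 0 rose (50% called, beside 23.8% of all genes). Cidec, a lipid droplet protein gene, fell 8.74-fold (-3.13 ± 0.80, adjusted p = 0.0133). Mogat1, which makes diacylglycerol, fell (-2.72 ± 0.78, adjusted p = 0.0185), from 6 to 22 counts in each chow library with control water to 0 to 4 with antibiotic water, and Vldlr, a lipoprotein receptor gene, fell 1.93-fold (-0.95 ± 0.27, adjusted p = 0.0173). The Mogat1 and Vldlr calls were kept in 13 and 14 of the 16 fits without a library (adjusted p up to 0.0643, without replicate 1 of chow with antibiotic water, and 0.0542, without replicate 3 of that group). The fatty acid transporter gene Cd36 did not pass (-0.19 ± 0.20, adjusted p = 0.505).

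Between antibiotic and control water after fast food, 8 of the 92 pathway genes passed (5 higher, 3 lower), 8.70% beside 5.99% of all genes. Fmo2 rose 2.99-fold (1.58 ± 0.27, adjusted p = 0.00815), and it alone kept its call whichever library was left out. Cyp39a1 rose (0.99 ± 0.25, adjusted p = 0.0349), as did Igfbp1 (3.14 ± 0.84, adjusted p = 0.0472), Insr, the insulin receptor gene (0.53 ± 0.14, adjusted p = 0.0413) and Cyp17a1, a steroid hydroxylase gene (1.24 ± 0.31, adjusted p = 0.0341). Ugt2b1 (-1.06 ± 0.29, adjusted p = 0.0431), Fitm1 (-1.52 ± 0.42, adjusted p = 0.0477) and Nox4 (-0.68 ± 0.19, adjusted p = 0.0439) fell. Each of these 7 lost its call in at least 4 of the 16 fits, and without replicate 1, 2 or 3 of fast food with control water 1 pathway gene was called. Of all genes, 0.876%, 1.26% and 0.584% were called in these fits. With the ribosomal RNA-like split as a model term edgeR called 0, with 19 at an unadjusted p under 0.05, and DESeq2 without that term called 18. Of all genes, the split called 0.00% and DESeq2 11.7%.

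Between fast food and chow with antibiotic water, 18 of the 92 passed (7 higher, 11 lower), 19.6% beside 13.7% of all genes. Cyp7b1 fell 4.46-fold (-2.16 ± 0.28, adjusted p = 0.000695), Nox4 fell 2.45-fold (-1.29 ± 0.19, adjusted p = 0.00119) and Foxa1 rose 2.80-fold (1.48 ± 0.30, adjusted p = 0.00707). These 3 were among the genes that kept their calls whichever library was left out. Of 18 tested female-biased genes, 2 rose and 3 fell (27.8% called, beside 13.7% of all genes), with a median of 0.20. Cyp17a1 rose (1.11, adjusted p = 0.0291), a call kept in 10 of the 16 fits. Sult1e1 (-2.62 ± 0.70, adjusted p = 0.0285) and Cyp39a1 (-0.94 ± 0.25, adjusted p = 0.0247) fell, and lost their calls in 5 and 3 of the 16 fits. Both were high after chow with antibiotic water, the group compared against, which favours a fall. Elovl3 was at 25.3, 0.790, 27.2 and 6.32 CPM after fast food with antibiotic water and did not pass (2.44 ± 0.76, adjusted p = 0.0506). In this group replicate 2 had the highest Sult1e1, Fmo2 and Cyp39a1 and the lowest Elovl3, as it had the highest Socs2. Without it 34 pathway genes were called, beside 22.8% of all genes. Without replicate 4, 5 were called, beside 5.24% of all genes.

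Between fast food and chow with control water, 3 of the 92 passed (2 higher, 1 lower), 3.26% beside 0.577% of all genes. At an unadjusted p under 0.05 were 18 of the 92, beside 1515 of all 13180 genes. Estimates were positive for 17 of 18 female-biased genes (median 0.58) and 13 of 19 male-biased genes (median 0.21), beside 6070 of all 13180. A gene that did not pass was not shown to be unchanged. Gstp1 fell 3.39-fold after fast food (-1.76 ± 0.29, adjusted p = 0.0161), from 571 to 819 CPM to 165 to 318 CPM. Cd36 rose 1.88-fold (0.91 ± 0.20, adjusted p = 0.0488), from 56.7 to 83.4 CPM to 111.9 to 140.02 CPM, and Atp6v0d2, a female-biased proton pump subunit gene, rose 3.28-fold (1.71 ± 0.37, adjusted p = 0.0496). Without replicate 1 or 3 of chow with control water, or replicate 2 or 4 of fast food with control water, 0 pathway genes were called by edgeR (13 to 16 at an unadjusted p under 0.05), and DESeq2 on all libraries called 8. Of all genes, these edgeR fits called 0.0824% to 0.143% and DESeq2 2.31%. Sult1e1 groups did not overlap (at most 0.549 against at least 2.03 CPM) but the difference did not pass (2.89 ± 1.12, adjusted p = 0.334).

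The interaction was called for 12 of the 92 pathway genes (3 positive, 9 negative), 13.0% beside 3.94% of all genes. Cyp7b1 (-3.15 ± 0.39, adjusted p = 0.00199) and Nox4 (-1.61 ± 0.26, adjusted p = 0.00493) kept their calls whichever library was left out. For Cyp7b1 the mean was 94.4 ± 17.9 CPM after chow and 188 ± 72.4 CPM after fast food with control water, and 569.9 ± 216 CPM after chow and 128 ± 21.7 CPM after fast food with antibiotic water. The other 10 calls were each lost in 1 or more of the 16 fits without a library. Without replicate 2 of fast food with antibiotic water 23 pathway genes were called, beside 11.2% of all genes.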

How the data were processed

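Messenger RNA libraries of mouse liver (16) were sequenced as 50-base single reads. The authors deposited raw counts per Ensembl gene for 25006 genes; the tools listed, per the submitters' processing notes and with no version or role, are HTSeq, STAR, cutadapt, FastQC, edgeR and DESeq2, with the build GRCm38.p6. No source used here tells the annotation release, the strand setting or the treatment of reads with several matches, so genes with near-identical relatives, among them Cyp2d9, are uncertain.

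From these counts, 13180 genes kept by edgeR's filterByExpr (minimum count 10) were fitted in R 4.3.3 with edgeR 4.0.16 (TMM factors, robust quasi-likelihood test, two-sided, 4 group means over 16 libraries, common biological coefficient of variation 0.222). P-values were adjusted by the Benjamini-Hochberg method over the 13180 genes and called below 0.05. Standard errors were taken from each log2 fold change and its F statistic. CPM values use TMM-scaled library sizes over the genes tested. The procedure was tested on simulated data. Alternatives included DESeq2 1.42.0, other filters, a replicate block, terms for the ribosomal RNA-like share and leaving out each library. The alternative without the 3 acute phase libraries was chosen with the data known.

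The 10 genes, the 6 pathway lists (110 genes) and the marker lists were chosen with earlier results of these data known. Genes named were the 10, up to 4 called genes of lowest p per list and comparison, 18 fixed genes, and the 5 genes most correlated with each of Socs2, Cish and Igf1. Igfbp6, Igf2r, Abcd2 and Mx2 lie outside this rule and were named after their values were seen. Some genes that the counts include are not reported here. Symbols, gene positions and exon lengths are from GENCODE M21.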

Additional observations from a re-analysis of the deposited data

Results flagged for a closer look

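In 76 groups of 4 libraries (19 genes in 4 groups), 9 had a library whose gap to the nearest other, divided by the range, was above the 95% critical value of Dixon's test; chance gives about 1 in 20 groups. Replicate 2 of fast food with antibiotic water stood apart for Socs2 (99.21 CPM, the others 20.3 to 31.14 CPM) and for the estrogen sulfotransferase gene Sult1e1 (35.46 CPM, the others 1.886 to 7.167 CPM). Replicate 2 of chow with control water stood apart for Cish (30.01 CPM, the others 4.461 to 5.475 CPM) and for Igfbp1 (470.6 CPM, the others 78.59 to 144.3 CPM). Replicate 4 of chow with antibiotic water stood apart for Bcl6 (19.03 CPM, the others 3.503 to 5.444 CPM). These 3 are the libraries with the highest acute phase scores; the part of that response in these values was not tested. In fast food with control water, replicate 2 stood apart for Bcl6 (15.16 CPM) and Trim24 (51.45 CPM), and replicate 3 for Cux2 (0.5607 CPM, the others 0.8634 to 0.9095 CPM). For Moxd1, replicate 1 of chow with control water had 0.1073 CPM, which is 1 count, where the others had 0.

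The meal by water interaction term of the edgeR fit was called for the 11 pathway genes given here (log2, adjusted p over all genes), and 3.94% of all genes were called. The term was negative for Cyp7b1 (-3.15, adjusted p = 0.00199), Nox4 (-1.61, adjusted p = 0.00493), Igfbp5 (-1.67, adjusted p = 0.0275) and Sult1e1 (-5.50, adjusted p = 0.0354). It was also negative for Hamp2 (-1.73, adjusted p = 0.0427), Fmo2 (-1.40, adjusted p = 0.0459), Igfbp4 (-0.62, adjusted p = 0.0486) and Moxd1 (-9.64, adjusted p = 0.0169, with 1 count in all of chow with control water, so that its size is no measure). It was positive for Gstp1 (1.66, adjusted p = 0.0322), Elovl3 (3.88, adjusted p = 0.0488) and Foxa1 (1.5003, adjusted p = 0.0495). Of these 11, only Cyp7b1 and Nox4 kept their calls in all 16 fits that left out a library. Moxd1 was called in 15 of them, Igfbp5 in 12, Gstp1 in 5 and Hamp2 in 4. Sult1e1 and Igfbp4 were called in 3, Fmo2 in 2, and Elovl3 and Foxa1 in 1.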

How the results depend on the processing

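Of the 92 tested pathway genes, the number called moved with the fit and with the libraries included. For the meal with control water (3 called), DESeq2 called 8, no filter 1, a fit to the 2 groups alone 11, a covariate for the ribosomal RNA-like share 1, its split as a model term 0 (17 at an unadjusted p under 0.05), and leaving out a library 0 to 3. Of all genes, these settings in this order called 2.31%, 0.302%, 2.86%, 0.167%, 0.129%, and 0.0824% to 1.16%. For the meal with antibiotic water (18), the fit to the 2 groups called 4, libraries above 1% alone 0 (15 unadjusted), libraries without the 3 with high acute phase genes 37, and leaving out a library 5 to 34 (without replicates 4 and 2 of fast food with antibiotic water). Of all genes, these called 1.87%, 0.00810%, 24.2%, and 5.24% to 22.8%. For water after chow (43), libraries above 1% alone, 2 against 2, called 0 (27 unadjusted), and leaving out a library 33 to 52. Of all genes, these called 0.0243%, and 17.2% to 27.4%. For water after fast food (8), DESeq2 called 18, no filter 2, the covariate 0 (21 unadjusted), the split 0 (19 unadjusted), and leaving out a library 1 to 13. Of all genes, these called 11.7%, 2.88%, 0.00%, 0.00%, and 0.584% to 8.26%. For the interaction (12), no filter called 6, the covariate 3, the split 4, libraries without the 3 with high acute phase genes 28, and leaving out a library 3 to 23. Of all genes, these called 2.00%, 1.08%, 1.99%, 14.0%, and 1.23% to 11.2%. The cause was not tested. Fits that leave libraries out also hold a smaller number of them, and the part of this was not tested either. Replicate numbers did not pair the libraries: 3 of 24 same-number pairs correlated above 0.1 (median -0.00041), and 1 of 16 libraries correlated best with its own number. With the replicate block, 2, 19, 43, 9 and 9 pathway genes were called in the 5 comparisons in this order. For the 10 genes, 788 of 800 values without a library and 464 of 480 under the other alternatives moved by less than the spread between replicates, and 0 reversed while called. This limit is loose, since leaving out 1 of 4 libraries mostly moves a group mean by less than that spread. Many of the libraries left out were also in groups not compared. These counts therefore do not show that the results are stable. The calls of the 10 genes that were lost when 1 library was left out are given above. For water after chow, the Cish call was also lost with no filter and in the fit to the 2 groups. For water after fast food, the Ghr call was lost in the fit to the 2 groups, and the Cux2, Cyp2d9 and Ghr calls with the covariate. The lowest levels, Cux2 with control water and Moxd1, are limited by depth.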
